A study of Mus musculus with 5 samples.

Results

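The H3K4me3 list of mouse striatal neurons held 319 regions wider than 20 kb among 13142 regions in all (2.43%). A member was any listed region whose end lay more than 20000 bp from its start, so the members were chosen by their width, which is given here as a description with no test. The 319 regions were listed for 584 of the 15052 genes of that list (3.88%). They were divided by H3K27me3: 152 regions shared at least 1 bp with a listed H3K27me3 region and 167 did not. By gene, 283 were at wide regions with H3K27me3, 301 at wide regions without it and 0 in both groups. Only a gene listed for several wide regions could be in both, so the 0 is not a result about the genes.

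Chromatin immunoprecipitation with sequencing had been done on nuclei from the striata of C57BL/6 mice at 8 weeks of age, sorted on NeuN, an antigen of most neurons. The labels call the nuclei medium spiny neurons, the GABAergic projection neurons of the striatum, but a NeuN sort does not separate them from interneurons. There were 5 samples, with 1 library for each of 4 antibodies (H3K4me3, H3K27me3, H3K27ac and RNA polymerase II, here Pol II) and 1 input. With 1 library per antibody no spread between replicates and no p-value can be given. Shares carry exact (Clopper-Pearson) 95% intervals, which cover counting error only and treat neighbouring regions as independent. The deposited lists hold regions near annotated transcription start sites, with the authors' score over input, and no score is below 2. The scale of the score is not given in the sources used here, so it ranks regions within 1 list only. Read depth is unknown from these files.

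H3K4me3 is the trimethyl mark of promoters and usually forms a narrow peak at the start of transcription. Broad H3K4me3 domains are known from genes that define a cell's identity, where the mark runs from the promoter into the transcribed gene. H3K27me3 is laid down by Polycomb repressive complex 2 and keeps developmental regulators silent, and promoters that carry both trimethyl marks are called bivalent. H3K27ac marks active promoters and enhancers and sits on the same lysine as H3K27me3, so a single histone tail cannot hold both.

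The promoters of 6 genes at the widest regions are shown because the lists hold regions near annotated start sites. The first promoter given for each gene was taken, and it was not placed on the H3K4me3 region. Of the widest regions with H3K27me3, Hoxc was passed over because its genes had no promoter in the table. The region of Eif4enif1 and Sfi1 was passed over for its low score (2.20). Each run gives the 250 bases before the RefSeq start in GRCm38.p6, 5′ to 3′ on the gene's strand, with every CpG in capitals. The region coordinates elsewhere are mm9 and must not be compared with these. The genes at wide regions with H3K27me3 were Hoxb1 (chr11:96365508-96365757, plus strand), Hoxa10 (chr6:52240855-52241104, minus strand) and Evx2 (chr2:74659558-74659807, minus strand).
Hoxb1: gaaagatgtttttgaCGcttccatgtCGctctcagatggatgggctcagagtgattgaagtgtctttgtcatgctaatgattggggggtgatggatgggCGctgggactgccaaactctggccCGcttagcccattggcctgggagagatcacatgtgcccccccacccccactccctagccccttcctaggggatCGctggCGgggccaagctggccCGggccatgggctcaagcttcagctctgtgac
Hoxa10: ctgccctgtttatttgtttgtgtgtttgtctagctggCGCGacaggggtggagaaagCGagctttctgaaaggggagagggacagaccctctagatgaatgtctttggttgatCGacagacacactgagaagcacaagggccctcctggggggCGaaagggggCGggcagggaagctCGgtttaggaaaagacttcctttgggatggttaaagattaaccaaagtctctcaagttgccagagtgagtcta
Evx2: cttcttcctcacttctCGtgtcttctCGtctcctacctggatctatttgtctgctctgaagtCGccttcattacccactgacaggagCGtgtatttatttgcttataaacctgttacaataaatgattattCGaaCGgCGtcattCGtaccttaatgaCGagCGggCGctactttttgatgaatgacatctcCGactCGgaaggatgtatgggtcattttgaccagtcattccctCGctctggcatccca
The genes at wide regions without H3K27me3 were Pde10a (chr17:8801495-8801744, plus strand), Baiap2 (chr11:119942842-119943091, plus strand) and Bcl11b (chr12:108003415-108003664, minus strand).
Pde10a: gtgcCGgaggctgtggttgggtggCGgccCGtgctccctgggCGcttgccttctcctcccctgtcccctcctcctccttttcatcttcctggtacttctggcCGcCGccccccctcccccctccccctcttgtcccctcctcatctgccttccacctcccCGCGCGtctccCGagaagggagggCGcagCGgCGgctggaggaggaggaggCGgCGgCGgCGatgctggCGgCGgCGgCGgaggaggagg
Baiap2: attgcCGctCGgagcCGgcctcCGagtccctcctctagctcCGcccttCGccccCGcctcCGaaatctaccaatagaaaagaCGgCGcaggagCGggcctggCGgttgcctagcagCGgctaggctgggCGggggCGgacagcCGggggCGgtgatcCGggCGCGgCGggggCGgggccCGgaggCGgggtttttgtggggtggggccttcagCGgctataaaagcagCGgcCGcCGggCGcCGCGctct
Bcl11b: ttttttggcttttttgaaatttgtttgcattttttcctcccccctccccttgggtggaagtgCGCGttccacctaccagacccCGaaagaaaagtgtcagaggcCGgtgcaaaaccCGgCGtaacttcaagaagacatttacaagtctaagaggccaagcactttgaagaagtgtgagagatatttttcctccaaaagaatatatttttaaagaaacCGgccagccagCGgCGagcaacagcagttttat

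CpG counts differed between these promoters. The 250 bases held 7 CpG at Hoxb1, 7 at Hoxa10 and 14 at Evx2, against 21 at Pde10a, 31 at Baiap2 and 9 at Bcl11b. With the 50 bases after the start added, the first 3 held 10, 12 and 16, and the last 3 held 23, 34 and 9. Over the 11697 genes of the H3K4me3 list with a promoter in the table, the median in 300 bases was 20. The hexamer GGGCGG (the GC box, searched on both strands in the 300 bases from 250 before to 50 after the start) was found at Hoxa10, Pde10a and Baiap2. It occurs in 63.8% of the promoters of those 11697 genes, and in 35.9% of all 27025 promoters of the table. TATAAA, searched in the same way, was found at Evx2, Baiap2 and Bcl11b. It occurs in 7.75% of the promoters of those 11697 genes and in 14.2% of all promoters of the table. A comparison of promoter sequence over all genes at wide regions is void, because the table holds a promoter for 399 of the 584 genes (68.3%).

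Several wide regions belonged to microRNA genes, whose mature products recognise targets through bases 2 to 8, the seed. The RefSeq mature sequences (GRCm38.p6) are shown because genes with the same seed lay at regions of the same group. The seed is in capitals. The first 4 come from Hox clusters under H3K27me3, the next 2 from regions without it.
miR-10a-5p: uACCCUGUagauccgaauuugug
miR-10b-5p: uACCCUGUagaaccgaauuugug
miR-196a-5p: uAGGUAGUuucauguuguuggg
miR-196b-5p: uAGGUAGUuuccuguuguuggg
miR-9-5p: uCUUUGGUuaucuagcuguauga
miR-338-3p: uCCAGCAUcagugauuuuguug
The seed ACCCUGU is shared by miR-10a and miR-10b, and AGGUAGU by miR-196a and miR-196b. Mir10a and Mir196a-1 lay in the Hoxb region, Mir196a-2 and Mir615 in the Hoxc region, Mir196b in the Hoxa region and Mir10b in a 37.3 kb region with Hoxd4. All 3 genes for miR-9, a microRNA abundant in the brain, lay at a wide region without H3K27me3: 28.8 kb at Mir9-1, 34.9 kb at Mir9-2, which shared it with C130071C03Rik, and 33.2 kb at Mir9-3. Mir124a-1, a source of the neuronal miR-124, had 24.0 kb, and Mir338 shared the 84.8 kb region of Baiap2. In all, 31 of the 180 microRNA genes of the H3K4me3 list lay at wide regions (17.2%, against 3.88% of all genes). They lay in 18 regions, 19 of the genes with H3K27me3 and 12 without. Most of the 19 lay in the Hox regions or in the 23.4 kb region of Rtl1, which had an H3K4me3 score of 2.76. The annotation table gave mature sequences for 29 of the 31.

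The groups with and without H3K27me3 were close in width and differed in score. Widths ran up to 132.8 kb over all 319, with a median of 25.3 kb (95% interval 23.5 to 26.6) in the 152 regions with H3K27me3 and 25 kb (24.3 to 25.9) in the 167 without. The median H3K4me3 score was 4.40 (4.19 to 4.62) with H3K27me3 and 10.2 (9.62 to 10.4) without, against 7.05 over the whole list. The score ranges overlapped, from 2.20 to 14.2 with H3K27me3 and from 2.59 to 15.3 without. Just inside the 20 kb limit were the 20.1 kb regions of 0610007P22Rik with Gnptg and of Neto1. Just outside were the 20 kb regions of Lmo4, Ahdc1 and Thra.

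**Figure D1:**
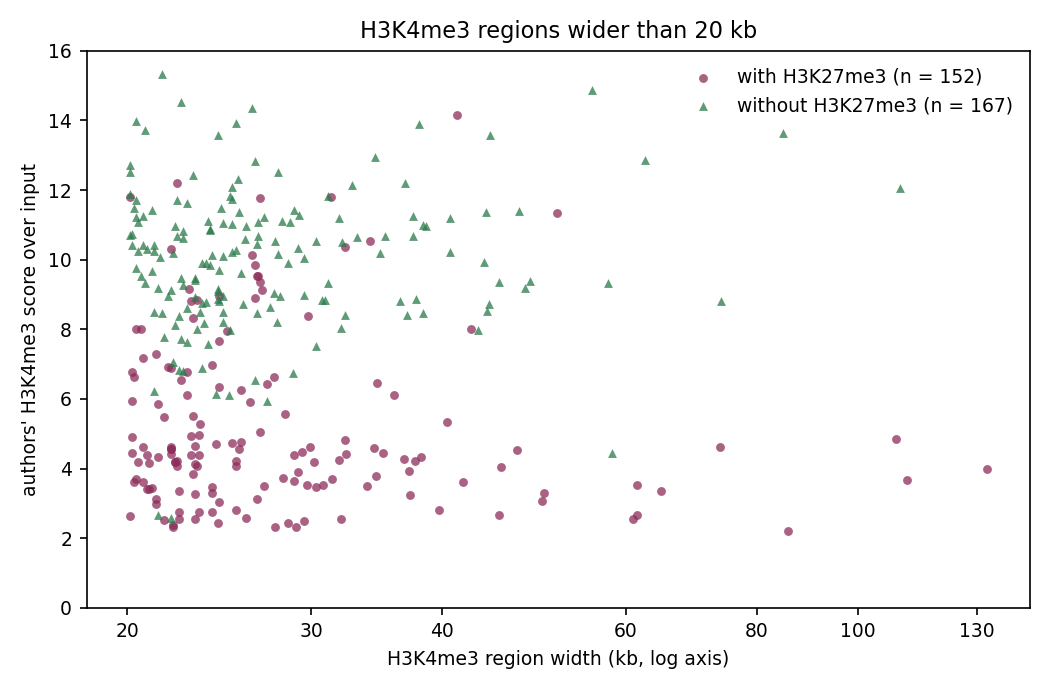
Width of the 319 H3K4me3 regions wider than 20 kb (kb, log axis) against the authors' H3K4me3 score over input, 1 point per region. The 152 regions with H3K27me3 (circles) lie mostly low, with a median score of 4.40, and the 167 without (triangles) mostly high, with a median of 10.2, over the same span of widths.

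H3K27me3 was listed at wide regions more often than over the whole list, and less often than at the narrowest regions. It overlapped 152 of 319 (47.6%, 42.1 to 53.3), against 35.5% of all 13142 H3K4me3 regions and 29.8% (27.6 to 32.1) of the 1624 regions of 10 to 20 kb. A wide region meets other regions more easily, so the midpoint base was read as well, which does not grow with width. It lay in H3K27me3 in 42.0% of wide regions (36.5 to 47.6), against 24.7% of all regions. In the 1026 regions up to 5 kb the shares were 68.9% by overlap and 63.3% at the midpoint. The share also moved with the H3K4me3 score: among the 184 wide regions at or above the median score of the list, H3K27me3 overlapped 15.8% (10.8 to 21.8). In most of the 152 the H3K27me3 domain was the larger of the pair. It was wider than the H3K4me3 region in 119 of 152 (78.3%) and covered all of it in 106, with a median H3K27me3 width of 65.8 kb.

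H3K27ac and Pol II divided the wide regions along the same line. H3K27ac was listed at 38 of the 152 with H3K27me3 (25%, 18.3 to 32.7) and at 162 of the 167 without (97.0%, 93.2 to 99%), against 72.8% of all H3K4me3 regions. Pol II was listed at 45 of the 152 (29.6%, 22.5 to 37.5) and at 161 of the 167 (96.4%, 92.3 to 98.7), against 57.8% of all. The midpoint base lay in H3K27ac in 10.5% of regions with and 35.9% without H3K27me3, against 69.1% of all regions, and in Pol II in 14.5% with and 32.9% without, against 52.8% of all. The difference by overlap, with minus without H3K27me3, was -72.0 percentage points for H3K27ac (-79.0 to -63.4) and -66.8 for Pol II (-74.3 to -57.9). These differences are much larger than their counting error. In regions of 10 to 20 kb the same differences were -55.0 (-59.5 to -50.4) and -53.6 points (-58.2 to -48.8), and in regions up to 10 kb -51.0 and -52.1 points. The larger difference at wide regions held by overlap, which grows with width, and not at the midpoint. There, H3K27ac stood at 28.1% with and 74.5% without H3K27me3 in regions of 10 to 20 kb, and at 38.9% with and 90% without in regions up to 10 kb, a wider gap than the 10.5% and 35.9% of wide regions. Pol II at the midpoint was at 22.3% with and 58.0% without in regions of 10 to 20 kb, and at 21.3% with and 73.0% without in regions up to 10 kb, also a wider gap than in wide regions.

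The H3K4me3 score moved with this division, and its part in the difference was examined by range. At scores from 3 to below 6, H3K27ac was listed at 2 of 86 regions with H3K27me3 and Pol II at 14 of 86, and only 2 regions without H3K27me3 fell in that range. From 6 to below 9, H3K27ac was listed at 18 of 27 with H3K27me3 (66.7%) and 48 of 50 without (96.0%). At 9 and above it was listed at 16 of 16 with and 112 of 113 without. With only the 184 wide regions at or above the median score of the list, the H3K27ac difference was -1.51 points (-15.9 to 3.42) and the Pol II difference -14.0 points (-32.7 to -1.89). The high-scoring regions with H3K27me3 were also less covered by it. In the 29 such regions among the 184 the median cover was 43.1% (12.4 to 95.5), against 100% over all 152. Score and H3K27me3 cover thus changed together here. The part of the score in the overall difference cannot be told apart from that of H3K27me3 where the groups share few scores.

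By combination, 99 wide regions (31.0%) had H3K27me3 and neither H3K27ac nor Pol II, against 21.0% of all H3K4me3 regions. H3K27ac and Pol II without H3K27me3 were listed at 160 (50.2%), against 48.8% of all. All 4 antibodies were listed at 30 (9.40%, against 7.75% of all). H3K27me3 and Pol II without H3K27ac were at 15 (4.70%, against 0.654% of all), a larger share than over the list. The other combinations had smaller shares than over the list. H3K27me3 and H3K27ac without Pol II were at 8 (2.51%, against 6.14%). H3K27ac alone was at 2 (Rgs8 and Dctn1, 0.627%, against 10.1%) and Pol II alone at 1 (a Pcdhg region, 0.313%, against 0.601%). None of them was at 4 (Jakmip1, Zfp110, Ip6k2 and 2810007J24Rik, 1.25%, against 4.99%).

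**Figure D2:**
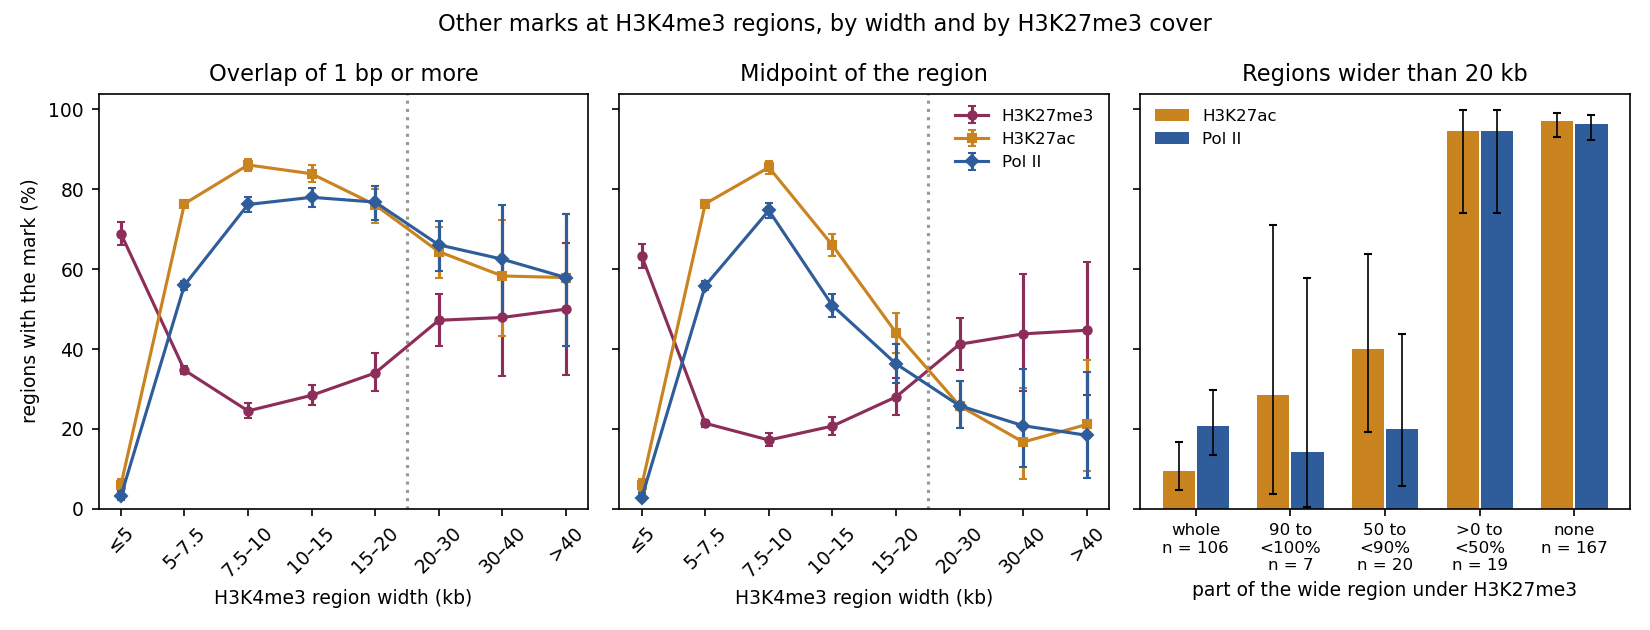
Share of H3K4me3 regions (%) with H3K27me3, H3K27ac and Pol II by H3K4me3 width (kb), by an overlap of 1 bp or more (left) and at the midpoint base (middle), and, for the 319 wide regions, by the part of the region under H3K27me3 (right). Bars and whiskers are shares with exact 95% intervals, and the dotted line marks 20 kb. H3K27me3 is lowest at 7.5 to 10 kb (24.5% by overlap) and higher on either side, and H3K27ac stands at 94.7% where H3K27me3 covers under 50% of a wide region and at 9.43% where it covers the whole.

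The 3 widest members with H3K27me3 were Hox clusters, which set position along the body axis in the embryo. The Hoxd region was the fifth, after that of Eif4enif1 and Sfi1. The Hoxb region (mm9, chr11:96106901-96239700) was 132.8 kb wide and listed for Hoxb1 to Hoxb9, the Hoxc region (chr15:102738401-102849700) was 111.3 kb, the Hoxa region (chr6:52097901-52206500) 108.6 kb and the Hoxd region with Evx2 (chr2:74482601-74556300) 73.7 kb. All 4 lay wholly inside H3K27me3 domains of 384.3, 275.6, 260.6 and 167.1 kb in that order, with no H3K27ac or Pol II listed. Their H3K4me3 scores of 3.67 to 4.85 were low and their H3K27me3 scores of 13.34 to 14.06 high within each list. Of the 39 Hox genes in the H3K4me3 list, 37 were at wide regions, in 7 regions. The other 2 were Hoxc4 (18.9 kb) and Hoxd1 (5.8 kb), each also with H3K27me3.

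Some of the 12 widest with H3K27me3 were of another kind. Hoxb13 had 61.4 kb and Hand2, a regulator of heart and limb development, 50.1 kb, both wholly under H3K27me3. The 85.7 kb region of Eif4enif1 and Sfi1 (score 2.20), the 61.4 kb region of Ceacam11 and Ceacam13 (2.67), the 60.9 kb region of C130026I21Rik (2.55), the 64.8 kb region of Aadacl3 (3.35) and the 49.8 kb region of Gm16387 (3.07) had low H3K4me3 scores. Their H3K27me3 scores were also low, from 2.31 to 3.65. Some of them, such as the Ceacam genes and the Pisd pseudogenes beside Sfi1, have similar copies elsewhere. How reads of such copies were placed is not given in the sources used here, and its part in these widths was not tested. H3K27ac was also listed at the Eif4enif1 and Sfi1 region, over 91.5% of it, with 95.4% of those bases under H3K27me3. Its score there was 2.58, where the list starts at 2. At Gm16387 H3K27ac covered 5.22% at a score of 2.03. Neurod2, Stard3 and Ppp1r1b shared the remaining region of the 12, with 51.5 kb and a score of 11.33.

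Developmental transcription factors made up much of the rest. Of 52 regulators of other brain and spinal cord regions, all in the H3K4me3 list, 22 were at wide regions (42.3%, 28.7 to 56.8, against 3.88% of all genes), 21 of them with H3K27me3. After Evx2 wide members included Vax2 (38.2 kb), Pax6 (36.0 kb), Pax3 (34.7 kb) and Zic2 (32.3 kb), which pattern eye, neural tube and cerebellum, all wholly under H3K27me3 and with no H3K27ac. The narrowest members were Dbx2 (5.5 kb), Pax8 (7.3 kb), Nkx2-4 (9.4 kb) and Phox2a (9.6 kb), each with H3K27me3.

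Regulators of tissues outside the nervous system gave a like count. Of 46 with an H3K4me3 region (52 were looked for), 19 were at wide regions (41.3%, 27 to 56.8), all 19 wholly under H3K27me3 and none with H3K27ac. The widest were Hand2, Gata4 (37.7 kb, heart and gut), Foxa2 (37.2 kb, endoderm), Cdx2 (34.6 kb, intestine), Tbx3 (34.4 kb, limb and heart) and Nkx2-5 (32.4 kb, heart). Cdx1, Bnc1, Gata5 and Twist2 were narrowest, at 5.2 to 6.5 kb. By the authors' gene descriptions, the word homeobox occurred for 74 of the 283 genes at wide regions with H3K27me3 (26.1%) and 3 of the 301 without (0.997%), against 1.08% of all genes of the list. Genes of a cluster were counted singly here, and the 37 Hox genes at wide regions, all with H3K27me3, lay in only 7 regions. The word was not counted by region.

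Fox, Sox and markers of other cell types were also read, beside the 3.88% of all genes at wide regions. Fox genes had 8 of 37 at wide regions (21.6%, 9.83 to 38.2), 7 with H3K27me3. Sox genes had 3 of 18 (16.7%, 3.58 to 41.4), all with H3K27me3 (Sox1, Sox14 and Sox21). Of 11 listed interneuron markers, Nkx2-1 (35.1 kb) and Lhx6 (20.2 kb) were at wide regions (18.2%, 2.28 to 51.8), both with H3K27me3. Of 16 glutamatergic cortical genes 4 were, all with H3K27me3, among them Neurod2, Neurog2 (27.2 kb) and Emx2 (23.5 kb). Sst and Pvalb, peptide and calcium-binding markers of interneurons, had 5.2 kb each. Markers of non-neuronal cells were at wide regions in 1 of 11 oligodendrocyte genes (Nkx2-2, 25.7 kb, wholly under H3K27me3) and in 0 of 10 astrocyte, 0 of 5 microglial and 0 of 9 endothelial and mural genes. Those counts of 0 allow shares of up to 30.8%, 52.2% and 33.6%, so they do not differ from the 3.88% of all genes. Other markers looked for had no H3K4me3 region at all: 4 of 15 for interneurons, 5 of 16 for oligodendrocytes and 3 of 13 for astrocytes. The same held for 11 of 16 microglial and 5 of 14 endothelial and mural markers.

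**Figure D3:**
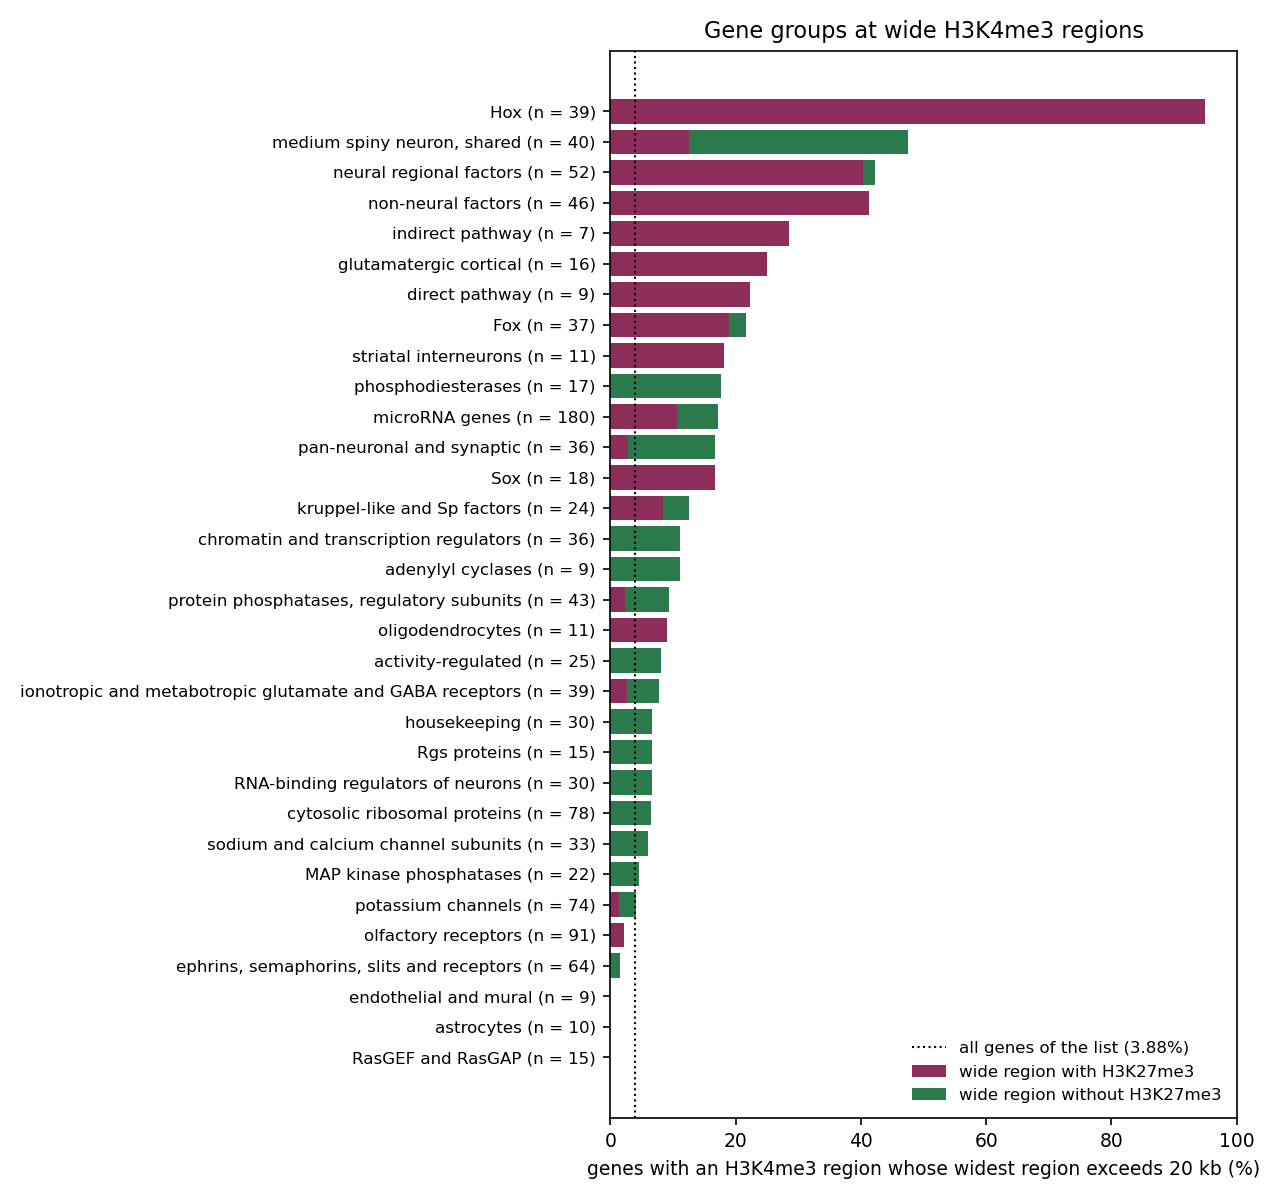
Share of each gene group (%, of its genes with an H3K4me3 region, n beside the name, groups of 7 or more) whose widest region exceeded 20 kb, with H3K27me3 (purple) and without (green). Hox genes reached 94.9%, shared medium spiny neuron genes 47.5%, and the dotted line marks 3.88%, the share over all genes of the list.

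Genes of the medium spiny neuron were often at wide regions, mostly without H3K27me3, though they were 14 of the 301 genes there. Of 40 genes shared by its subtypes with an H3K4me3 region (41 were looked for, Foxp1 was not listed), 19 were at wide regions (47.5%, 31.5 to 63.9), 14 without H3K27me3 and 5 with. The median width over the 40 was 17.9 kb, against 6.60 kb over all 15052 genes. Many of these genes were placed in the list because they are known in striatal neurons, and the list was written with earlier results of these data known. Among the narrowest regions of the list were those of Rgs4 (10.8 kb), Ptpn5 (10.1 kb) and Foxp2 (9.3 kb).

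Pde10a, the phosphodiesterase of striatal projection neurons, had the widest region without H3K27me3 (mm9, chr17:8991301-9101000). H3K4me3 spanned 109.7 kb at a score of 12.06, H3K27ac covered 26.5 kb of it (24.2%) and Pol II all of it, in a 193.2 kb Pol II region. Baiap2, which encodes the synaptic scaffold IRSp53, came next (chr11:119794301-119879100) with 84.8 kb, H3K27ac over 17.1% and Pol II over 91.7%. In both, Pol II ran over most of the domain and H3K27ac over the smaller part.

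Bcl11b, the transcription factor Ctip2 of these neurons, had the reverse order (chr12:109176501-109250400). Its 73.9 kb of H3K4me3 was covered by H3K27ac over 88.4% and by Pol II over 65.1%. Adcy5, the adenylyl cyclase of the striatum, had 44.5 kb (chr16:35151401-35195900) under H3K27ac over 98.2% and under Pol II over 97.8%. At Slc6a6, the taurine transporter gene, neither reached far: of 62.5 kb, H3K27ac covered 13.3% and Pol II 15.8%. The amount of H3K27ac and Pol II under a domain of H3K4me3 differed several-fold between members of like width.

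The remaining members of the 12 widest without H3K27me3 were Pde2a, a cGMP-stimulated phosphodiesterase gene (55.6 kb), 9530059O14Rik (57.6 kb), Sec14l1 (48.0 kb), a Pcdhg region on chromosome 18 (58.2 kb), and 3 regions with several genes. These last were Zbtb9, Phf1 and Cuta (48.6 kb), Cirbp, Midn and Atp5d (47.4 kb), and Zfp574 and Grik5 (45.3 kb). Their H3K27ac cover ran from 0% at Pcdhg to 67.1% at Zbtb9, Phf1 and Cuta. The Pcdhg score of 4.45 was the lowest of these 12, and its 11 listed genes belong to a family of similar copies.

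The list of shared medium spiny neuron genes showed the same spread further down. Pcp4, a calmodulin-binding peptide gene, had 44.2 kb with H3K27ac over 21.5% and Pol II over 19.9%. Meis2 and Dlx5 with Dlx6, homeobox factors of the striatal lineage, had 38.4 and 36.9 kb with H3K27ac over 86.2% and 98.1%. Ngef, a guanine nucleotide exchange factor gene, had 34.5 kb with H3K27ac over 31.3% and Pol II over 100%, and Pde1b 29.5 kb with 56.6% and 100%. Gng7, the G protein gamma subunit of striatal receptor signalling, had 37.0 kb and, 200 bp away, another wide region of 22.4 kb. Over all 167 regions, Pol II covered at least 90% of 13 and H3K27ac at least 90% of 5, while 1 or the other covered the whole in 3 (Pol II) and 0 (H3K27ac).

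**Figure D4:**
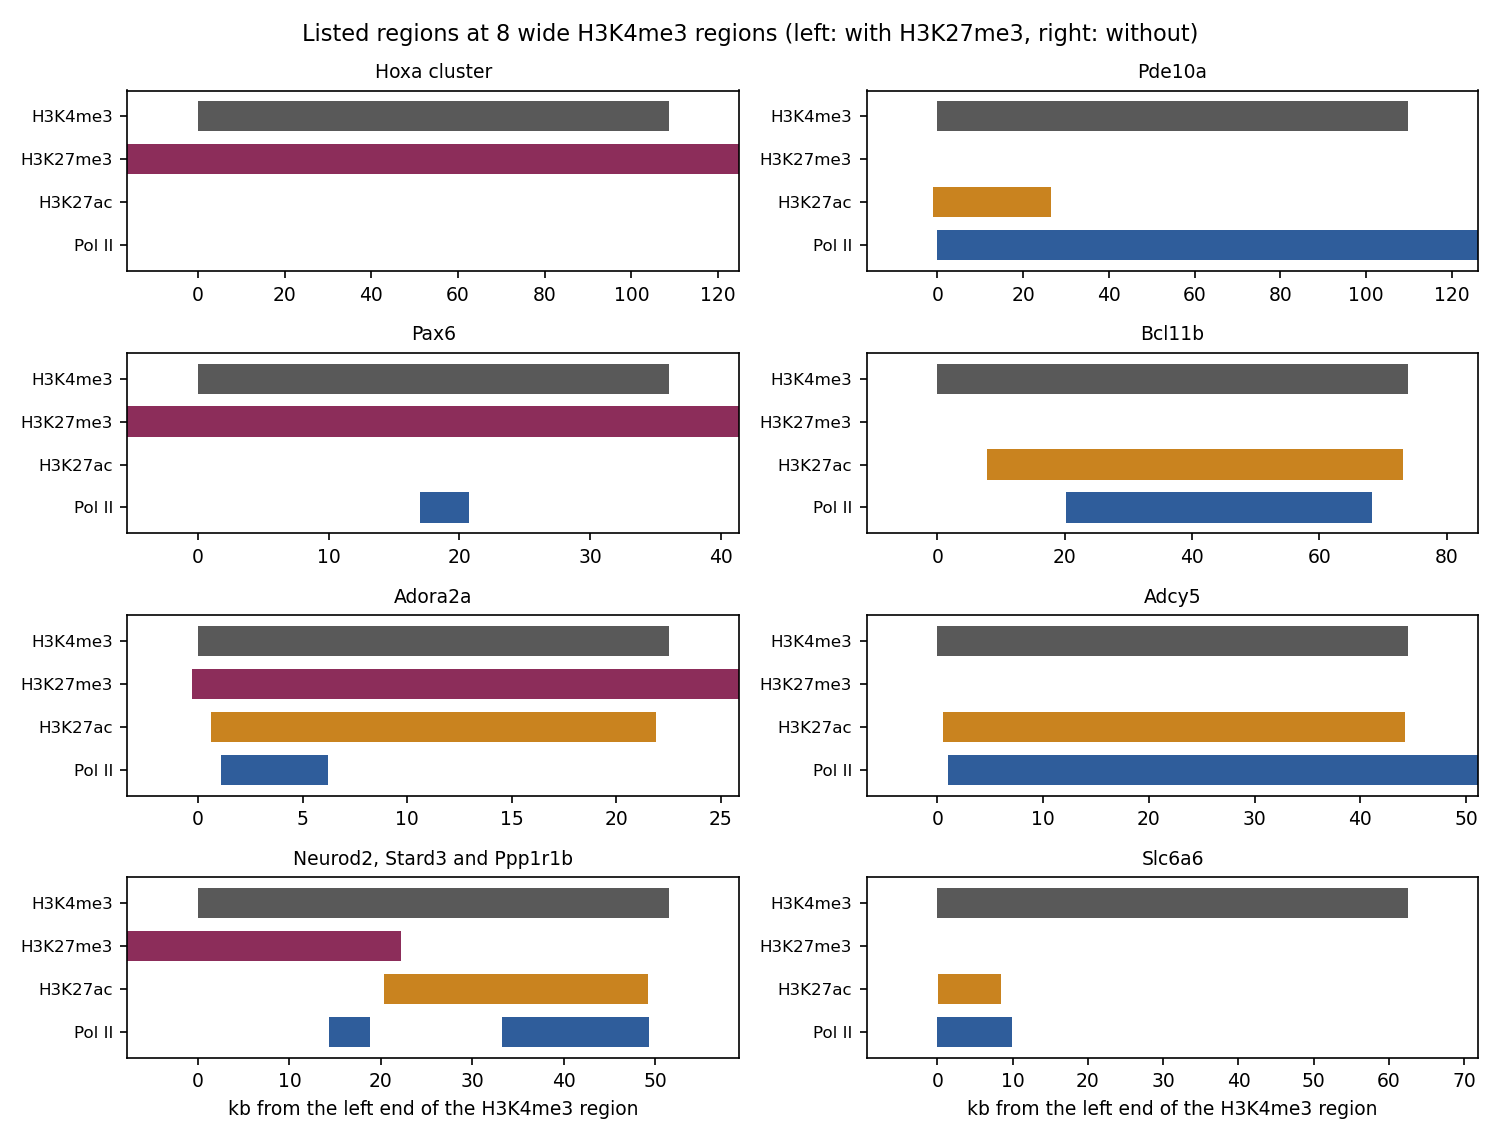
Listed regions of each antibody at 8 wide H3K4me3 regions, in kb from the left end of the H3K4me3 region (left column with H3K27me3, right column without). Bars that meet the frame go on beyond it. At the Hoxa cluster only H3K27me3 accompanied the 108.6 kb of H3K4me3, at Adora2a both H3K27me3 (100%) and H3K27ac (94.7%) covered the region, at Neurod2, Stard3 and Ppp1r1b they took different ends, and at Pde10a Pol II covered the whole.

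Where the direction of transcription is known for a single gene, H3K27ac sat at the upstream end of the wide H3K4me3 region. In 93 regions without H3K27me3, with 1 gene and 1 H3K27ac region, H3K4me3 reached farther past H3K27ac on the downstream side in 87 (93.5%, 86.5 to 97.6). The median overhang was 14.7 kb downstream and 0.200 kb upstream. For Pol II it was 76 of 88 (86.4%, 77.4 to 92.8), with 15.9 kb downstream and 0.5 kb upstream. At Slc6a6 H3K4me3 ran 54.1 kb past H3K27ac downstream and 0.1 kb upstream, and at Pde10a 83.2 and 0.0 kb.

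The same place was seen in narrower regions. Among regions of 10 to 20 kb without H3K27me3 it held for 645 of 733 by H3K27ac (88.0%, 85.4 to 90.3) and 588 of 695 by Pol II (84.6%, 81.7 to 87.2), so it is not particular to widths above 20 kb. There were 6 wide exceptions by H3K27ac, with more H3K4me3 upstream, among them Adcy5, Npas4, Mir124a-1 and Cic, named after their values were seen. Regions listed away from start sites are not in these files, so a stretch counted as free of H3K27ac is free only of listed regions.

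**Figure D5:**
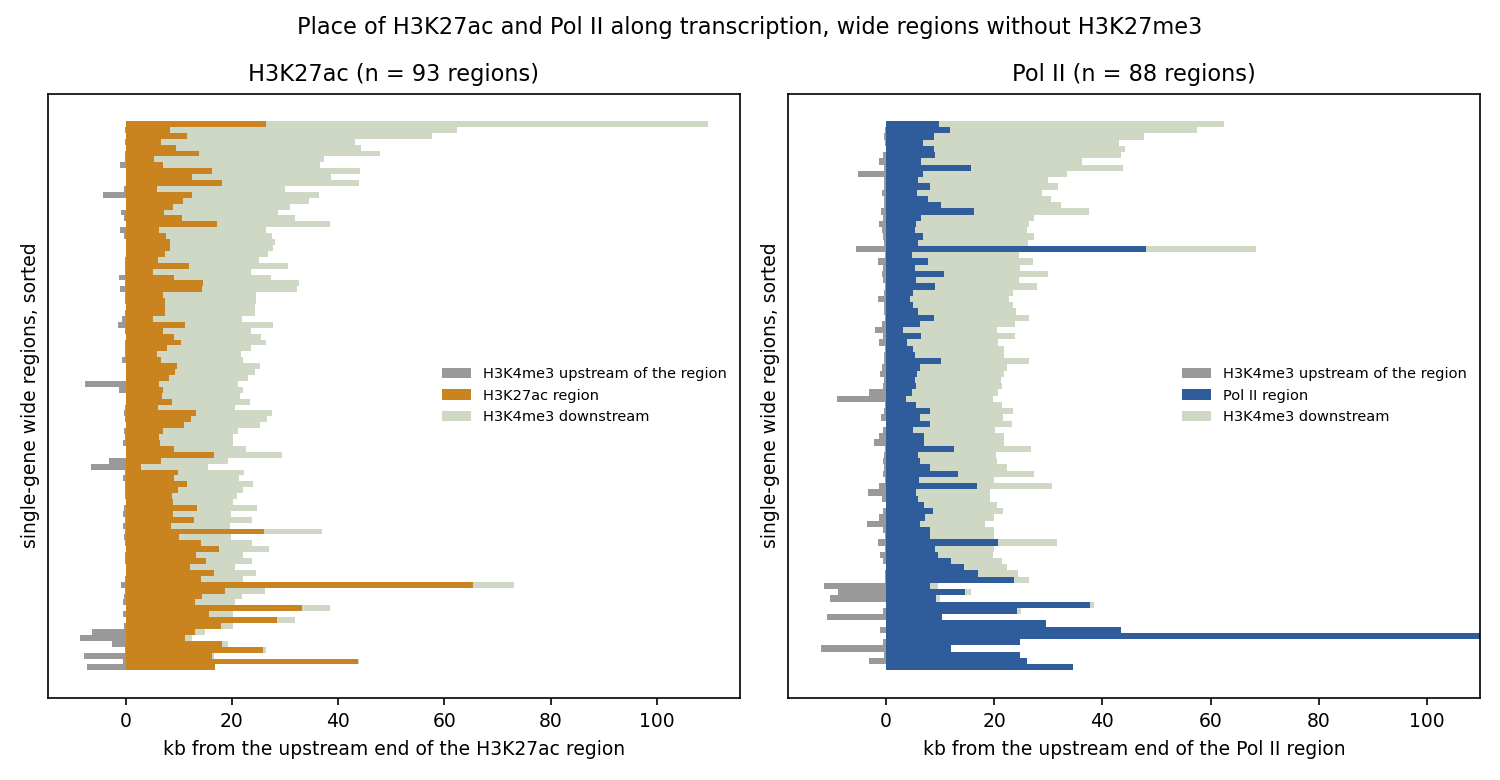
Extent of H3K4me3 upstream (grey) and downstream (pale) of the H3K27ac region (left, 93 regions) or the Pol II region (right, 88 regions), in kb along the direction of transcription, 1 bar per wide region without H3K27me3 and with 1 gene. The coloured part is the other antibody within the H3K4me3 region, and the horizontal axis starts at its upstream end. Bars extend mostly to the right, with median downstream overhangs of 14.7 and 15.9 kb. The longest Pol II bar, at Pde10a, covers the region entirely.

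The 152 regions with H3K27me3 were not uniform. H3K27ac was listed at 10 of the 106 wholly under H3K27me3 (9.43%, 4.62 to 16.7), 8 of 20 covered over 50 to under 90% (40%, 19.1 to 63.9) and 18 of 19 covered under 50% (94.7%, 74.0 to 99.9). Pol II was listed at 20.8%, 20% and 94.7% of the same groups, in that order. The 7 regions covered over 90 to under 100% had H3K27ac in 2 and Pol II in 1. In the 3 larger groups the median H3K4me3 score was 4.32, 3.43 and 9.52 in that order, and thus highest where H3K27me3 covered least. The part of the score in the H3K27ac shares was not tested.

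The 5 least covered were Creld1 with Prrt3 (0.377% of 26.5 kb), Rmnd5b with Nhp2 (1.37%), Napa with Kptn (1.49%), Slc12a5, the neuronal chloride exporter gene (1.87% of 26.8 kb), and Nfkb2 (2.79% of 32.3 kb). All 5 had H3K27ac, over 30.2 to 66.9% of the region, and Pol II. Grin1, the obligatory NMDA receptor subunit, was of this kind, with 7.17% of 22.3 kb under H3K27me3. The 51.5 kb of Neurod2, Stard3 and Ppp1r1b (chr11:98173001-98224500) had H3K27me3 over 43.1% and H3K27ac over 56.1%, and of the H3K27ac bases 6.57% lay under H3K27me3. Ppp1r1b encodes Darpp-32, the signalling protein of striatal neurons, and Neurod2 a factor of glutamatergic neurons.

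The 10 regions wholly under H3K27me3 that had H3K27ac, named after their values were seen, included several genes of striatal lineages. Adora2a, the adenosine receptor of indirect-pathway neurons, had 22.5 kb of H3K4me3 at a score of 6.53, under H3K27me3 throughout, with H3K27ac over 94.7% and Pol II over 22.7%. Sp9, a factor of the same neurons, had 22.0 kb with H3K27ac over 98.2% and Pol II over 63.2%. Isl1, a direct-pathway factor, had 24.9 kb with 54.2% and 42.2%, and Six3 22.0 kb with 74.1% and 67.7%. The others included Terc, Sox1, Dlx1 with Dlx2, and Accn4, with H3K27ac over 16.1 to 78.9%.

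The labels do not say how nuclei of the direct and indirect pathways were apportioned, and both are in a NeuN sort. Marks on the same nucleosome, on different alleles and in different cells therefore cannot be told apart. Of the 9 direct-pathway genes, Isl1 and Chrm4 (22.9 kb, H3K27me3 over 73.4%, Pol II over 81.7%) were at wide regions, and of the 7 indirect-pathway genes Adora2a and Sp9. Tac1 (9.5 kb) and Penk (9.6 kb), the peptide genes of the pathways, were not. Over the 38 wide regions with H3K27me3 and H3K27ac, no base was shared by them in 8, H3K27ac lay wholly under H3K27me3 in 12, and they shared part of their bases in 18.

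Pol II without H3K27ac was listed at 15 of the 152 wide regions with H3K27me3 (9.87%), against 71 of 4516 narrower ones with H3K27me3 (1.57%). All 15 lay wholly under H3K27me3 and at developmental regulators, again named after their values were seen, among them Tcfap2a, Pax6, Tbx3, Barhl2, Ebf3, Lbx1, Msx1, Sim1, Emx2, Tbx18, Foxa1, Tbx2, Foxd1 and Gata2. Pol II covered 3.5 to 11.3 kb of these H3K4me3 regions, where the median width of a Pol II region over its list was 4.90 kb. Its scores there were low, 2.03 to 2.71, where the list starts at 2. At Pax6, the eye and forebrain factor, Pol II covered 3.7 of 36.0 kb. A wide region offers more bases for such an overlap, and the part of width in the count was not tested.

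Synaptic, signalling and chromatin genes were counted in the same way, beside the 3.88% of all genes. Of 36 pan-neuronal and synaptic genes, 6 were at wide regions: Camk2a (32.8 kb), Grin2b (32.1 kb), Vamp2 (28.5 kb), Camk2b (24.0 kb) and Dlg4 (23.6 kb) without H3K27me3, and Grin1 with it. Phosphodiesterase genes had 3 of 17, all without H3K27me3, and ionotropic and metabotropic glutamate and GABA receptor genes 3 of 39 (Grik5, Grin2b and Grin1). Of 36 chromatin and transcription regulators, 4 were at wide regions without H3K27me3, including the DNA methylation genes Dnmt3a (24.4 kb) and Tet3 (24.7 kb). Activity-regulated genes had 2 of 25 (Per1 and Npas4).

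Ion channel and general housekeeping genes were close to the background. Potassium channel genes had 3 of 74 at wide regions (4.05%), among them Kcnj4 and Kcnj9. Sodium and calcium channel subunits had 2 of 33, RNA-binding regulators of neurons 2 of 30 (Celf2 and Celf5), housekeeping genes 2 of 30 (Ywhaz and Chmp2a) and cytosolic ribosomal protein genes 5 of 78 (6.41%). Among ephrins, semaphorins, slits and their receptors 1 of 64 was (Plxnd1, 22.0 kb), and among olfactory receptor genes 2 of 91.

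Some wide regions stand over several close genes. A region was listed for 3 or more genes in 24 of 152 with H3K27me3 (15.8%) and 38 of 167 without (22.8%), against 2.04% of all H3K4me3 regions. Rpl19 with Cacnb1 (31.1 kb) and Rpl18 with Dbp and Sphk2 (24.4 kb) are such regions. Among wide regions without H3K27me3, the median width was 25.4 kb with 3 or more genes and 24.7 kb with 1 gene. Genes on both strands were listed for 35 of 152 (23.0%) and 49 of 167 (29.3%), against 12.1% of all. A wider region can hold more start sites, and the members were chosen by width. Over the whole list, the median width was 13.8 kb with 3 or more genes and 6.20 kb with 1 gene. The part of width in these shares was not tested.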

How the data were processed

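The deposited lists, 1 per antibody, give each region with a transcript, a gene and the authors' score over input. The submitters' processing notes name MACS 1.4, Bowtie 0.12.7 and the build mm9 and do not say what each was used for. Bounds lie on a grid of 100 bp, no score is below 2, and the deposited names state a window of 3 kb around start sites. Regions wider than the window are listed whole. The input enters only through these lists, and other marks were read as listed regions only.

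Unique regions were taken by position, and the score of a region listed with 2 scores (12 regions) is the higher. Overlap was 1 bp or more. Covered bases were merged over regions, and equalled those of bedtools 2.31.1 for all 13142 regions. The overlap code returned the known answer for 2000 of 2000 simulated regions. Intervals came from scipy 1.17.1, tables from pandas 2.3.3 and numpy 2.4.6, and figures from matplotlib 3.10.9, all under Python 3.11.15. Shares have exact 95% intervals, medians intervals from order statistics, and differences intervals by the square-and-add method. Positions are mm9, counted from 1. For a gene with several regions the widest was taken, and 36 of 19072 lines without a gene name were left out of gene counts.

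Sequences and names came from RefSeq tables of GRCm38.p6, which matched 18374 of 18762 transcripts (97.9%). Named regions were the 12 widest with and the 12 widest without H3K27me3, the 3 on each side of 20 kb, those with the most and the least H3K27me3 cover (106 were covered whole, so none of these was picked as most covered), wide regions without H3K27ac or Pol II (the 12 widest), and list members at wide and at the narrowest regions. Exceptions to a count were named after their values were seen. The members and gene lists were chosen with earlier results of these data known. Some genes that this rule would name are left out here.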

Additional observations from a re-analysis of the deposited data

How the results depend on the processing

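Of 83 alternatives, 42 left a value within the reach set for it, 41 moved it and none turned a sign. Main values are in the account above, and shares are those of wide regions with H3K27me3, H3K27ac and Pol II, in that order. Above 15000 bp there were 716 regions, with 40.1%, 70.1% and 71.4%, and median covers of 38.1% by H3K27ac and 30.4% by Pol II. Above 30000 bp there were 86, with differences of -81.1 points for H3K27ac and -76.3 for Pol II, median covers of 18.1% and 17.5%, and a median promoter CpG count of 17.0, a measure that is void because too few genes had a promoter. At or above the median H3K4me3 score there were 184, with 15.8%, 97.8% and 94.6%, differences of -1.51 and -14.0 points, covers of 44.5% and 36.4%, an H3K27me3 cover of 43.1% where present, and 22.0 CpG. At least 0.5 covered gave 41.7%, 27.6% and 19.4%, with differences of -38.3 and -28.2 points. The midpoint gave 42.0%, 23.8% and 24.1%, with -30.8 and -22.3 points. Only the upper 50% of each other list gave 40.4%, 54.9% and 49.2%, and a median Pol II cover of 0%. Merging within 3000 bp gave 72.6% for H3K27ac and 72.6% for Pol II, over 471 regions. The next was chosen after seeing the data: regions with 1 gene gave 55.0% for H3K27ac, 57.5% for Pol II and a difference of -81.1 points for H3K27ac. The cause of each move was not tested, beyond the larger or smaller set that the setting itself makes. No paired analysis was possible because each antibody had 1 library, and no replicate could be left out. Depth is unknown, so what it limits cannot be read from these lists.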

Other observations

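The imprinted region of chromosome 12 held wide regions of both groups side by side. Rtl1 with 10 microRNA genes, 23.4 kb at an H3K4me3 score of 2.76, had H3K27me3 over 63.2% and neither H3K27ac nor Pol II. Meg3, a long noncoding RNA gene, lay 10100 bp away with Mir770, 27.2 kb at a score of 5.95, with no H3K27me3, H3K27ac over 22.8% and Pol II over 36.0%. The alleles cannot be told apart in these lists.

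Wide regions lay near each other in places. Of 299 pairs of wide regions next to each other on a chromosome, 35 lay within 100 kb, 13 of them with H3K27me3 in both, 14 in neither and 8 mixed. Gaps of 300 bp separated Hoxa13 from the rest of Hoxa and Hoxd4 from the rest of Hoxd, and 200 bp separated Mir139 from Pde2a.

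Low scores gathered members of another kind. Of the 319 wide regions, 25 scored below 3 (7.84%, against 10.2% of all regions), 23 of them with H3K27me3, 3 with H3K27ac and 1 with Pol II. They include regions of the pregnancy-specific and Ceacam glycoprotein, Prame-like, androgen-binding protein, olfactory and vomeronasal receptor families, whose copies are similar. How reads of such copies were placed was not tested.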
